A study of Mus musculus with 4 samples.

Results

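Genes that copy the genome and genes that carry cells through mitosis were followed in hepatocytes of fatty livers after short-term tamoxifen. The set holds 55 genes, chosen by name as known S phase and mitosis genes and matched by mouse symbol to the identifiers of the expression files, out of 22298 genes listed there. Of these, 35 act in mitosis and 20 in DNA replication. Messenger RNA was sequenced from primary hepatocytes of wild-type male C57BL/6 mice, which were 8 weeks old at purchase and had eaten a methionine- and choline-deficient (MCD) diet, which induces steatohepatitis, during 6 weeks. One group received tamoxifen, a selective estrogen receptor modulator, at 100 mg/kg on 5 consecutive days, and the other received the vehicle. Both groups shared the diet, the sex, the strain and the genotype. Each group had 2 libraries. Nothing in the labels ties the libraries to separate mice, so the p-values below measure the spread between libraries, which may be technical.

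Levels are in FPKM, which scales fragment numbers to transcript length and library size, as deposited. The libraries held about 16700000 to 20700000 mapped fragments, estimated from the spacing of low values. Alternatives scaled by the median ratio of genes or by quantiles are given as well. Changes are on the log2(FPKM + 1) scale, tamoxifen minus vehicle, and this scale understates the change of genes with low levels. A gene was called when limma gave it an adjusted p under 0.05. Among the 11633 genes tested, 46.7% were lower after tamoxifen and 4.31% were higher, and all genes together had a median log2 fold change of -0.60. Hepatocyte markers were at high levels in all libraries, as the labels say, and markers of other liver cells were present as well. Their values close this section.

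A cell that divides passes a commitment step in G1, copies its DNA in S phase and separates the copies in mitosis. Cyclin E with its kinase and the E2F factors open S phase, at which the MCM helicase, loaded on origins by Cdc6 and Cdt1, unwinds the DNA. Cyclins A and B with Cdk1 then drive mitosis until the anaphase-promoting complex destroys them. Hepatocytes of the adult liver are mostly resting and many are polyploid, and they can copy DNA without dividing. The genes of the S phase are often read from promoters with E2F sites, and those of mitosis from promoters with a CHR, the cell cycle genes homology region, often with CCAAT boxes near it.

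Promoters of mitosis and of replication members differed in these letters, and 5 are shown here as RefSeq gives them on GRCm38.p6. Windows of 300 bases, from 250 before to 50 after the start of transcription, were found for 46 of the 55 members, in 50 windows, and 9 members had no entry in the table. Each sequence below is the first 280 bases of the window, and the start follows base 250. Capitals mark matches to the CHR (TTTGAA) or to an E2F site (TTTCCCGC, TTTCGCGC, TTTGCCGC or TTTGGCGC) on either strand. Cdc20 and Ube2c are the members of mitosis with a CHR that changed most on the log2(FPKM + 1) scale used below, Mcm3 and Mcm5 are the members of replication with an E2F site that changed most, and Cks2 was added after its values were seen, as the one mitosis gene that was not called.
Cdc20 (chr4:118437314-118437593, minus strand): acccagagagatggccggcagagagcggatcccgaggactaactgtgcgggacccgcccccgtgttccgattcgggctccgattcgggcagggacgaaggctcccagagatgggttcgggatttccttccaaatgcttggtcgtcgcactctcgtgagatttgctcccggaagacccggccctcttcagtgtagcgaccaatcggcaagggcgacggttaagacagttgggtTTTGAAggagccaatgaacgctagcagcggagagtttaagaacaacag
Ube2c (chr2:164769679-164769958, plus strand): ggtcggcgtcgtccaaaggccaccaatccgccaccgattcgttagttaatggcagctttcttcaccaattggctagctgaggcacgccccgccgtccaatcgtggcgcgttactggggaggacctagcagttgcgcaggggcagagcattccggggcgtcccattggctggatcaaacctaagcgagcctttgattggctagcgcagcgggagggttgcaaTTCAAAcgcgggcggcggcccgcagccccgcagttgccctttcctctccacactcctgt
Mcm3 (chr1:20820283-20820562, minus strand): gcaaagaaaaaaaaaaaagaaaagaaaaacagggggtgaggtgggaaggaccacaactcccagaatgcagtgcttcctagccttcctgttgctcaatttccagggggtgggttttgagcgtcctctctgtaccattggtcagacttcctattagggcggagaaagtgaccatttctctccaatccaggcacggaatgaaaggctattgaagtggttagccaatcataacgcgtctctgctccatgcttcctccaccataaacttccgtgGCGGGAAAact
Mcm5 (chr8:75109259-75109538, plus strand): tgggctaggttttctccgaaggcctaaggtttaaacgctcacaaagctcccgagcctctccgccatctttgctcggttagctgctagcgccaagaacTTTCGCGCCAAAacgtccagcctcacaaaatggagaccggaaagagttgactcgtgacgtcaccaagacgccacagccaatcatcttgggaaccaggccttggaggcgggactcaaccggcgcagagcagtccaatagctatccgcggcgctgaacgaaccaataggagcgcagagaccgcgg
Cks2 (chr13:51644982-51645261, plus strand): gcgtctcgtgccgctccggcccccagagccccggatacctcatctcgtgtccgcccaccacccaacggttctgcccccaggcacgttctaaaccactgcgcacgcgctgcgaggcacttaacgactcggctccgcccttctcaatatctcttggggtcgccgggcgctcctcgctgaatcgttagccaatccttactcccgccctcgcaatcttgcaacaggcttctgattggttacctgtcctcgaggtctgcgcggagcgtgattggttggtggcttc
In the Cdc20 window the CHR lay at bases 233 to 238, between CCAAT matches at bases 198 to 202 and 243 to 247. In the Ube2c window it lay at bases 222 to 227 on the other strand. The Mcm5 window held a pair of E2F matches that overlap, at bases 98 to 105 and 102 to 109. In the Mcm3 window an E2F match lay at bases 270 to 277, after the start, and a further match at bases 289 to 296 lies beyond the part shown. The Cks2 window held neither motif, but 7 other mitosis genes with a window and no CHR match (Ccnb1, Birc5, Melk, Bub1, Cenpe, Nuf2 and Nusap1) were all called lower. All 7 stayed under 1 FPKM in both tamoxifen libraries and had to be lower under the filter described below. Only the letters given above were searched, so no match does not mean that a gene lacks a CHR.

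Across the members a CHR match was found in 23 of 31 mitosis windows (74.2%), against 3 of 19 replication windows (15.8%) and 17.9% of all 32851 promoter windows. Within bases 201 to 300, a range chosen after the positions were seen, 71.0% of the mitosis windows held one, against 10.5% of the replication windows and 4.94% of all. The E2F letters were found in 7 of 19 replication windows (36.8%), those of Mcm3, Mcm5, Mcm6, Mcm7, Cdc6, Cdt1 and Uhrf1, against 1 of 31 mitosis windows (3.23%), that of Cdk1, and 2.26% of all windows. CCAAT, searched on both strands, was in 83.9% of the mitosis and 68.4% of the replication windows, against 37.4% of all. A match describes the letters and is no proof of a site in use.

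**Figure D1:**
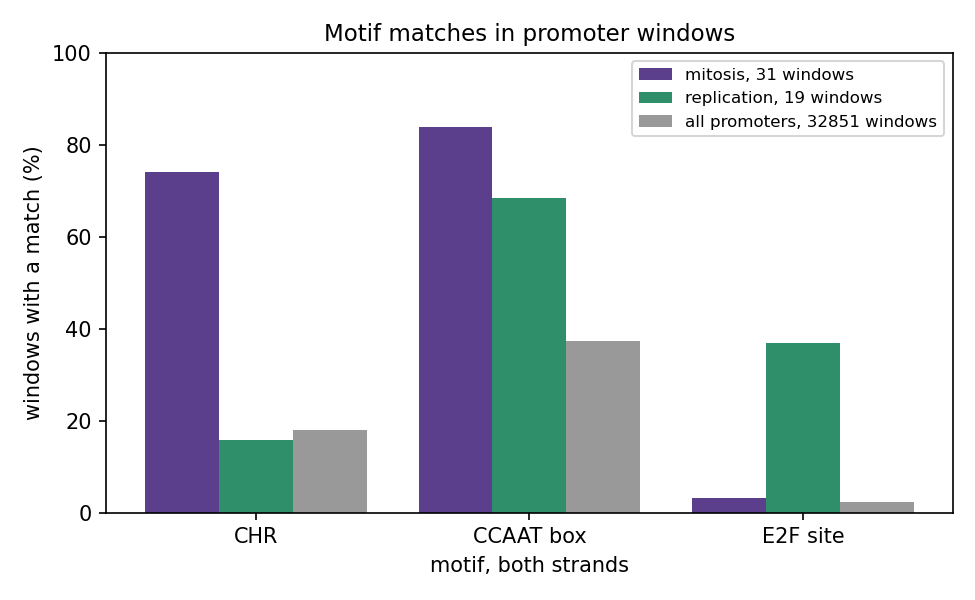
Share of promoter windows (%) with a match to the CHR, the CCAAT box or an E2F site on either strand, for the mitosis members (31 windows), the replication members (19 windows) and all RefSeq promoters (32851 windows). CHR matches stand at 74.2% in the mitosis windows and 15.8% in the replication windows, and E2F matches at 3.23% and 36.8%.

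In the vehicle libraries nearly the whole set was detected, and after tamoxifen most mitosis genes were close to 0 while most replication genes stayed at a measurable level. All 35 mitosis members stood at 1 FPKM or more in each vehicle library, and 4 did in each tamoxifen library. Of the 20 replication members, 19 and 20 reached that level in vehicle 1 and 2, and 15 and 12 in tamoxifen 1 and 2. The median mitosis member kept 4.25% of its vehicle level and the median replication member 28.0%.

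With limma, 54 of the 55 members were tested, 48 were lower after tamoxifen, 0 were higher (adjusted p under 0.05) and 6 did not pass, beside the 46.7% lower and 4.31% higher among all genes tested. No member was higher at an unadjusted p under 0.05 either. The median log2 fold change was -1.96, against -0.60 over all genes. Cdc6, which loads the helicase on origins, was below the filter, at 0.710, 1.16, 0.07 and 0.05 FPKM in vehicle 1, vehicle 2, tamoxifen 1 and tamoxifen 2. The filter asked for 1 FPKM in 2 libraries, and 35 of the 54 members met it through the vehicle libraries alone, as did 12.1% of all genes tested, so these had to be lower after tamoxifen and their count describes the set without supporting it. Of the 19 that also reached 1 FPKM in a tamoxifen library, 13 were lower. By the thresholds of the study (1.5-fold with an unadjusted p under 0.05), 50.1% of all genes tested were lower. For 51 of the 55 members both tamoxifen libraries lay below both vehicle libraries, as for 71.9% of all genes tested.

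**Figure D2:**
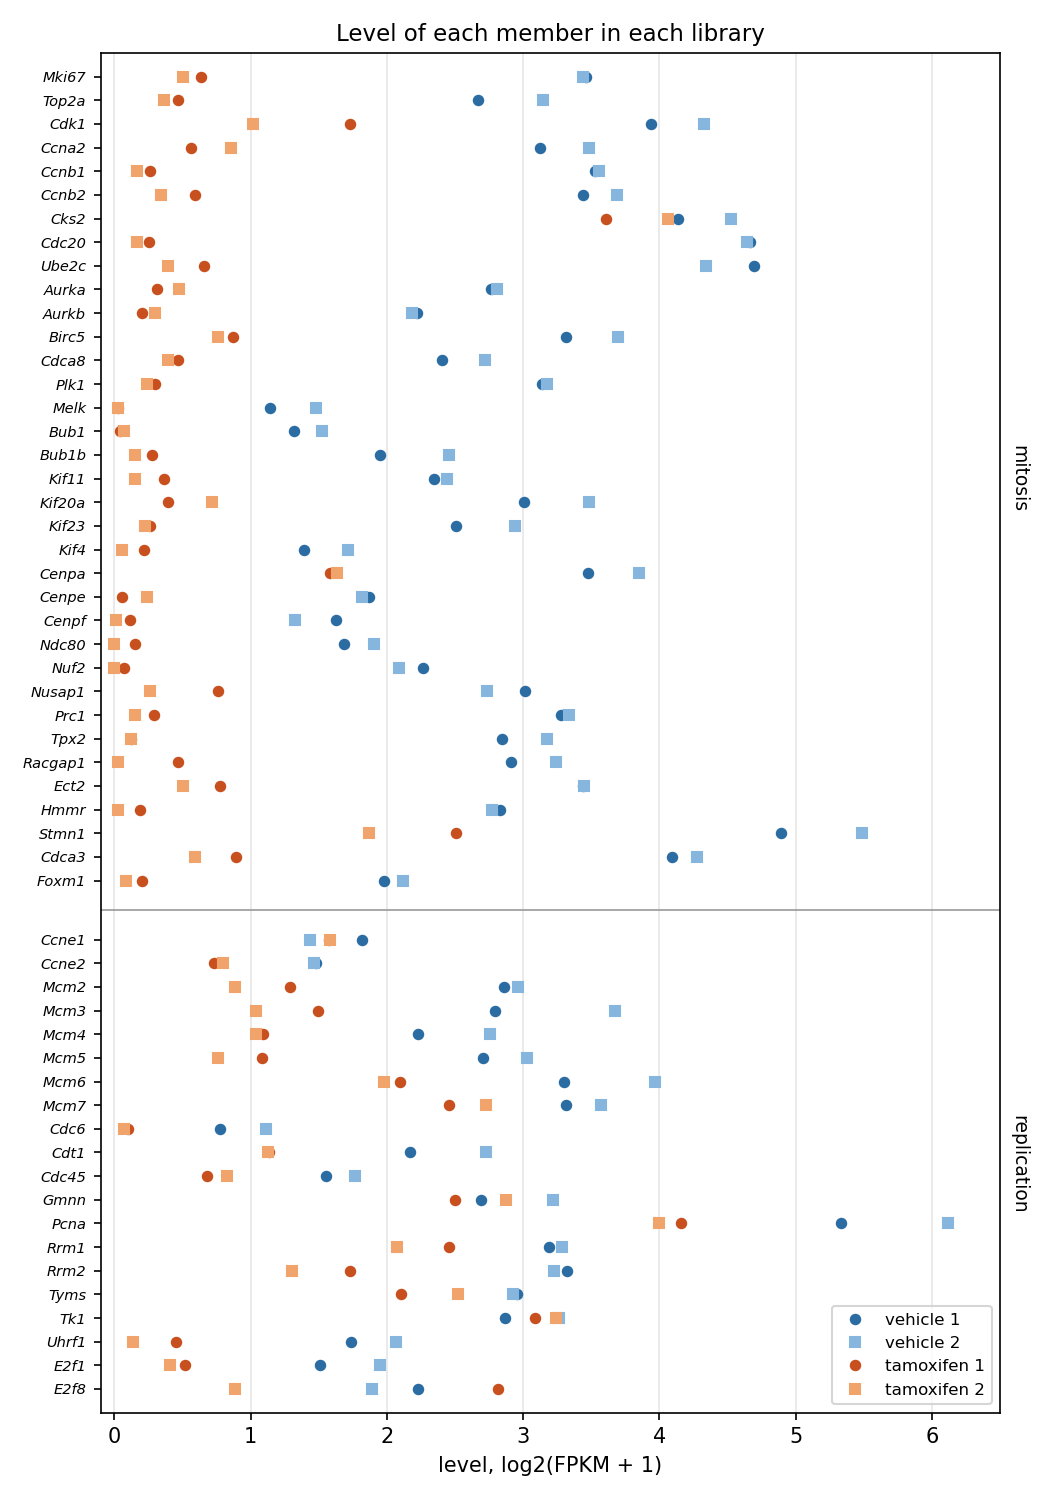
Level of each of the 55 members, as log2(FPKM + 1), in the 2 vehicle libraries (blue) and the 2 tamoxifen libraries (orange), with the 35 mitosis genes above and the 20 replication genes below. For the mitosis genes other than Cks2 the tamoxifen points lie far to the left of the vehicle points, while the groups overlap for Ccne1, Gmnn, Tk1 and E2f8.

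Among the mitosis genes 34 of 35 were lower with limma and 1, Cks2, did not pass, and for all 35 the groups did not overlap, beside the 46.7% of all genes tested that were lower and the 71.9% whose groups lay apart in this direction. Of the 35, 31 met the filter through the vehicle libraries alone and had to be lower, and of the 4 that also reached 1 FPKM in tamoxifen 3 were lower. Their median log2 fold change was -2.49, within a range of -4.45 to -0.49. Ranked among all 11633 genes by log2 fold change, 28 of the 35 fell in the lowest 10% and 34 in the lowest 25%. With median ratios 34 were still lower, and with quantile normalization 30.

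Mki67 encodes Ki-67, which coats mitotic chromosomes and is used to score dividing cells in tissue. Its level was 10.04 and 9.86 FPKM in vehicle 1 and 2 and 0.550 and 0.420 FPKM in tamoxifen 1 and 2. The vehicle libraries agreed closely, and the tamoxifen mean was 4.87% of the vehicle mean (log2 fold change -2.88, SE 0.22, adjusted p = 0.000476 with limma). Top2a, the topoisomerase that untangles sister DNA, changed by -2.49 on the same scale.

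The engine of mitosis itself fell with them. Ccnb1 encodes cyclin B1, the partner that switches Cdk1 on, and stood at 10.54 and 10.77 FPKM in vehicle and 0.200 and 0.120 FPKM in tamoxifen, with a log2 fold change of -3.33 (SE 0.22, adjusted p = 0.000371 with limma). Cyclin B2 (Ccnb2), cyclin A2 (Ccna2) and the kinase Cdk1 changed by -3.10, -2.59 and -2.76 and each was lower with limma. The 3 cyclins kept between 1.5% and 7.2% of their vehicle level.

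Cks2, a small subunit that docks on Cdk1 and helps it bind its substrates, behaved otherwise. Its level was 16.6 and 22.1 FPKM in vehicle and 11.2 and 15.7 FPKM in tamoxifen. The highest tamoxifen value came just under the lowest vehicle value, and 69.8% of the vehicle level was left (log2 fold change -0.49, 95% interval -1.07 to 0.087, adjusted p = 0.131 with limma). It made up much of what remained in tamoxifen, since the summed level of the mitosis genes was 29.7 and 28.4 FPKM in the tamoxifen libraries with it and 18.5 and 12.7 FPKM without it. Its log2 fold change was 0.26 with median ratios and 0.10 with quantile normalization, and neither passed the test.

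The partners of the anaphase-promoting complex, which ends mitosis by marking cyclins for destruction, showed the largest changes of the set on this scale, though not by the share of the vehicle level left, where Nuf2 and others lay under Ube2c. Cdc20, the activator of the complex, stood at 24.4 and 24.0 FPKM in vehicle and at 0.190 and 0.120 FPKM in tamoxifen. About 903 fragments of it were expected in vehicle 1 at the estimated depth, against about 6.1 and 3.6 in tamoxifen 1 and 2, so the tamoxifen values rest on few fragments. Its log2 fold change was -4.45 (SE 0.22, adjusted p = 0.000209 with limma) and 0.641% of the vehicle level was left. Ube2c, the ubiquitin-conjugating enzyme of the complex, stood at 24.9 and 19.3 FPKM in vehicle and 0.580 and 0.310 FPKM in tamoxifen (log2 fold change -3.99, 2.01% left). The gene of Cdc20 lies at chr4:118432901-118437352 and that of Ube2c at chr2:164769898-164778822 in GENCODE M21 (GRCm38).

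All 6 mitotic kinases and passenger complex genes were lower with limma, beside 46.7% of all genes tested, with a median log2 fold change of -2.27. Of the 6, 0 reached 1 FPKM in a tamoxifen library, so all met the filter through vehicle alone and had to be lower. Birc5, which encodes survivin, the passenger subunit that guides Aurora B to centromeres, had the highest level among them, with 8.93 and 12.0 FPKM in vehicle and 0.830 and 0.690 FPKM in tamoxifen. Plk1, the polo-like kinase of mitotic entry, changed by -2.89, the Aurora kinases Aurka and Aurkb by -2.40 and -1.95 and Cdca8, a scaffold of the passenger complex, by -2.13. Melk, a kinase expressed in dividing cells, had one of the 3 smallest changes among the mitosis genes on this scale, -1.28, at a low starting level. It stood at 1.21 and 1.79 FPKM in vehicle and at 0.02 FPKM in each tamoxifen library, so 1.33% of its level was left.

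The spindle checkpoint kinases Bub1 and Bub1b hold anaphase back until every chromosome is attached. Bub1b stood at 2.86 and 4.48 FPKM in vehicle and at 0.210 and 0.110 FPKM in tamoxifen. Bub1 stood at 1.49 and 1.87 FPKM in vehicle and at 0.03 and 0.05 FPKM in tamoxifen (log2 fold change -1.36, adjusted p = 0.00377 with limma). After quantile normalization Bub1 and Melk no longer passed (adjusted p = 0.0731 and 0.0675 with limma), nor did the kinesin Kif4 and the kinetochore gene Cenpf (0.0884 and 0.112).

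Kinesins move chromosomes and bundle the spindle. All 4 measured here were lower with limma as deposited, beside 46.7% of all genes tested, with log2 fold changes between -2.69 and -1.42. Of the 4, 0 reached 1 FPKM in a tamoxifen library, so they met the filter through vehicle alone and had to be lower. Kif20a, which acts in the cleavage of the cell, had the highest level of the 4, at 7.04 and 10.2 FPKM in vehicle and 0.310 and 0.640 FPKM in tamoxifen. All 5 centromere and kinetochore genes were lower as deposited, beside the same 46.7% of all genes, with changes between -2.14 and -1.41. Among these only Cenpa reached 1 FPKM in a tamoxifen library, so the others had to be lower. Cenpa, the histone H3 variant that marks the centromere, kept more than the others, with 10.1 and 13.4 FPKM in vehicle and 1.99 and 2.11 FPKM in tamoxifen, or 17.4% of its vehicle level. The kinetochore subunits Ndc80 and Nuf2, which grip microtubules, were listed at 0 in tamoxifen 2 and at 0.11 and 0.05 FPKM in tamoxifen 1.

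The 7 spindle and cytokinesis genes were all lower, beside 46.7% of all genes tested. Their log2 fold changes ran from -3.09 for Prc1, which bundles the central spindle, to -2.36 for Nusap1. Only Stmn1 among them reached 1 FPKM in a tamoxifen library, so the others met the filter through vehicle alone and had to be lower. Stmn1, which encodes the microtubule-destabilizing protein stathmin, was the most abundant mitosis gene in vehicle, at 28.7 and 44.0 FPKM, and stood at 4.68 and 2.65 FPKM in tamoxifen (log2 fold change -3.01). Stathmin is also made outside mitosis. Cdca3, which helps to degrade the mitotic brake Wee1, stood at 16.1 and 18.4 FPKM in vehicle and at 0.860 and 0.510 FPKM in tamoxifen (log2 fold change -3.44, adjusted p = 0.000371 with limma). Foxm1, the forkhead factor that activates many genes of mitosis, changed by -1.91, with a mean of 3.14 ± 0.283 FPKM over the vehicle and 0.105 ± 0.0636 FPKM over the tamoxifen libraries (SD, n = 2).

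Replication genes fell less evenly. With limma 14 of the 19 tested were lower and 5 did not pass, beside 46.7% lower over all genes. Of the 19, 4 met the filter through vehicle alone, and of the other 15, 10 were lower. The median log2 fold change was -1.26 within a range of -1.97 to 0.10, and for 4 of the 20 the groups overlapped. Ranked among all genes tested, 3 of the 19 fell in the lowest 10%, 10 in the lowest 25% and 4 above the median of all genes. The median of the replication genes was -1.21 without tamoxifen 2, -1.04 without vehicle 2 and -1.32 without tamoxifen 1. Over all genes it was then -0.57, -0.52 and -0.65.

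The 6 subunits of the MCM helicase, which form a ring around DNA and unwind it, were all lower as deposited, beside 46.7% of all genes tested. Their median was -1.71, against -0.60 over all genes, and Mcm4 lost its call after quantile normalization (adjusted p = 0.0819 with limma). Mcm3 stood at 5.94 and 11.7 FPKM in vehicle and 1.82 and 1.05 FPKM in tamoxifen (log2 fold change -1.97, SE 0.33, adjusted p = 0.00345 with limma). Vehicle 2 was 1.98 times vehicle 1 for this gene, a wide spread that did not bring the groups together, and without vehicle 2 its log2 fold change was -1.53. Mcm5 stood at 5.52 and 7.15 FPKM in vehicle and 1.12 and 0.690 FPKM in tamoxifen, and Mcm2 at 6.26 and 6.80 FPKM in vehicle and 1.44 and 0.850 FPKM in tamoxifen. Their log2 fold changes were -1.95 and -1.82.

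Mcm7 kept more of its level than the other subunits, at 8.94 and 10.9 FPKM in vehicle and 4.49 and 5.64 FPKM in tamoxifen, or 51.0% of vehicle. Its log2 fold change was -0.85 (SE 0.23, adjusted p = 0.0187 with limma), and the call was lost with median ratios (-0.15), with quantile normalization (-0.094) and without vehicle 2, tamoxifen 1 or tamoxifen 2. Exons of Mcm7 overlap those of Ap4m1 and Cops6 on the opposite strand by up to 247 bases. Cops6, a signalosome subunit, was at 41.8 and 38.5 FPKM in vehicle and 40.2 and 33.9 FPKM in tamoxifen. The library kit is not stated to keep strand, so reads in such overlaps cannot be assigned to one gene. Exons of 17 of the 55 members overlap those of another annotated gene, and 6 members (Ccnb1, Ccnb2, Kif4, Pcna, Stmn1 and Tyms) have an annotated near-identical copy elsewhere, so their values carry this uncertainty.

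Of the origin licensing and firing genes, Cdt1, the helicase loader, and Cdc45, which activates the helicase, changed by -1.32 and -0.91 and were lower with limma as deposited. The Cdc45 call was lost with median ratios (-0.47), with quantile normalization (0.057) and without tamoxifen 1 or tamoxifen 2 (adjusted p = 0.120 and 0.0924 with limma), and the Cdt1 call with quantile normalization (-0.42, adjusted p = 0.147 with limma). Gmnn encodes geminin, which blocks Cdt1 so that no origin fires again in the same S phase. Its level was 5.45 and 8.33 FPKM in vehicle and 4.65 and 6.34 FPKM in tamoxifen. The groups overlapped and the test did not pass (log2 fold change -0.27, 95% interval -0.90 to 0.36, adjusted p = 0.422 with limma).

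Pcna, the sliding clamp that holds polymerases on DNA and also serves in repair, was the most abundant gene of the set. It stood at 39.4 and 68.5 FPKM in vehicle and at 16.8 and 14.9 FPKM in tamoxifen. The tamoxifen libraries lay close together and well under the lower vehicle library, and 29.4% of the vehicle level was left (log2 fold change -1.65, SE 0.28, adjusted p = 0.00344 with limma). The log2 fold change was -0.88 with median ratios and -1.26 without vehicle 2.

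Of the 4 enzymes that supply deoxynucleotides 2 were lower as deposited, near the 46.7% of all genes tested. Rrm2, the subunit of ribonucleotide reductase that is made in S phase, stood at 9.01 and 8.38 FPKM in vehicle and at 2.32 and 1.47 FPKM in tamoxifen (log2 fold change -1.76, adjusted p = 0.00169 with limma). Rrm1, the partner subunit, changed by -0.97 and was lower as well, but its call was lost with median ratios (-0.29), with quantile normalization (-0.18) and without vehicle 2 or tamoxifen 2 (adjusted p = 0.0571 and 0.132 with limma). Tyms, which makes thymidylate, stood at 6.75 and 6.60 FPKM in vehicle and at 3.30 and 4.75 FPKM in tamoxifen. Its groups did not overlap, but the change of -0.63 missed the threshold (adjusted p = 0.0599 with limma).

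Tk1, the thymidine kinase of the salvage pathway, was the 1 member whose estimate lay above 0. Its level was 6.29 and 8.60 FPKM in vehicle and 7.52 and 8.48 FPKM in tamoxifen, and the groups overlapped (log2 fold change 0.10, 95% interval -0.44 to 0.65, adjusted p = 0.724 with limma). With median ratios and with quantile normalization it was the 1 member called higher, with log2 fold changes of 0.81 and 0.85. One exon of Tk1 overlaps Afmid, a kynurenine pathway enzyme, by 83 bases on the opposite strand, and Afmid stood at 6.47 and 5.83 FPKM in vehicle and at 23.6 and 28.8 FPKM in tamoxifen. The part of this overlap in the Tk1 values was not tested.

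Cyclin E, which starts S phase, has 2 genes. Ccne1 stood at 2.52 and 1.70 FPKM in vehicle and 1.98 and 2 FPKM in tamoxifen, with both tamoxifen values inside the vehicle range (log2 fold change -0.044, 95% interval -0.61 to 0.53, adjusted p = 0.889 with limma). Ccne2 stood at 1.79 and 1.76 FPKM in vehicle and 0.660 and 0.740 FPKM in tamoxifen and was lower (-0.71, adjusted p = 0.0355 with limma). The difference between the genes was not tested itself, and the Ccne2 call was lost after both rescalings, with 0.25 after quantile normalization, and without tamoxifen 1 or tamoxifen 2.

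Uhrf1, which helps to copy DNA methylation to the new strand, changed by -1.61. E2f1, the activator of S phase genes, changed by -1.26, and both were lower with limma as deposited. Both calls were lost after quantile normalization (-0.66 and -0.30, adjusted p = 0.0535 and 0.243 with limma), and that of E2f1 without tamoxifen 2 (adjusted p = 0.0547 with limma). E2f8, a repressor of E2F targets that in mouse liver promotes polyploidy, had the widest interval of the set. Its level was 3.68 and 2.70 FPKM in vehicle, 6.05 FPKM in tamoxifen 1 and 0.850 FPKM in tamoxifen 2. One tamoxifen library was above both vehicle libraries and the other below both, and about 398 and 52.4 fragments lay behind the tamoxifen values. Its log2 fold change was -0.20 (95% interval -1.48 to 1.08, adjusted p = 0.769 with limma), -1.17 without tamoxifen 1 and 0.76 without tamoxifen 2.

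**Figure D3:**
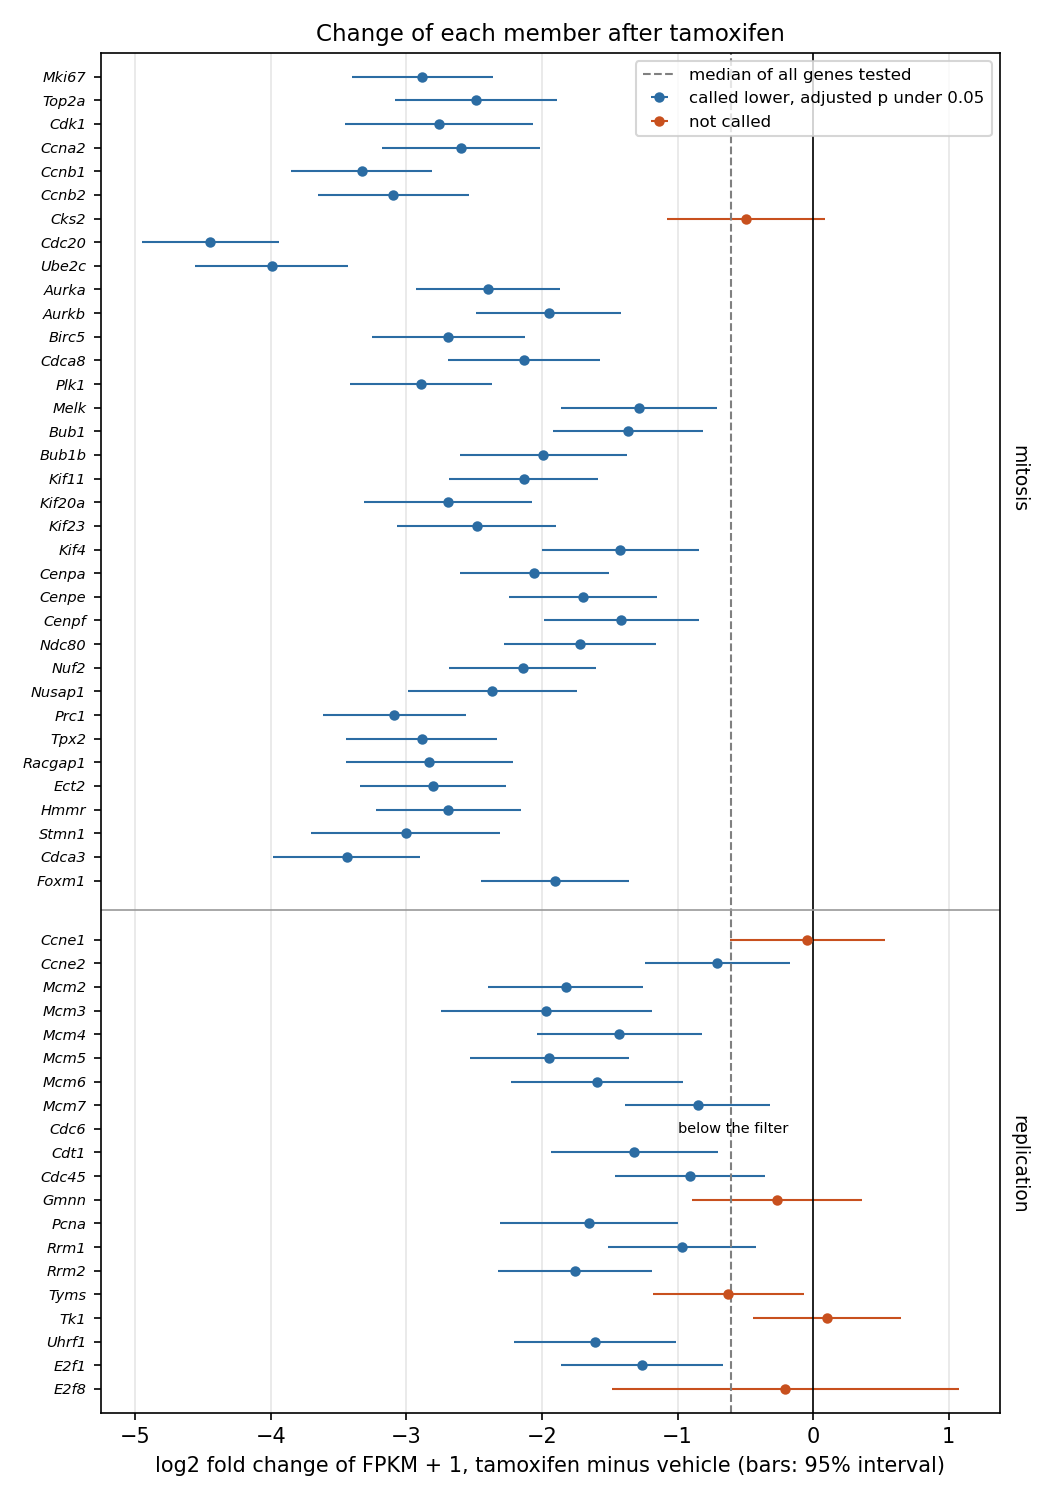
Log2 fold change of FPKM + 1 (tamoxifen minus vehicle) of the 54 members tested, with 95% intervals from limma, and the median of all genes tested at -0.60 as a dashed line. Mitosis genes run from -4.45 (Cdc20) to -0.49 (Cks2) and replication genes from -1.97 (Mcm3, on this scale) to 0.10 (Tk1), with the 6 genes that did not pass in orange.

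The contrast of mitosis with replication was read within each library, where a shift of all genes cancels out in part. In vehicle the median mitosis gene lay above the median replication gene, by 0.21 and 0.23 on the log2(FPKM + 1) scale, and in tamoxifen it lay below, by -1.23 and -0.84. The summed level of the mitosis genes was 290.3, 338.0, 29.7 and 28.4 FPKM in vehicle 1, vehicle 2, tamoxifen 1 and tamoxifen 2, and that of the replication genes 132.5, 187.6, 63.8 and 57.5 FPKM. The ratio of these sums was 2.19 and 1.80 in vehicle and 0.465 and 0.495 in tamoxifen, so the order of the sums turned over. Both tamoxifen libraries lay apart from both vehicle libraries by more than the replicates differed (SD of the median difference between replicates 0.19). No permutation test over 2 against 2 libraries can pass a threshold of 0.05, and none was run.

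The difference of the median log2 fold changes, mitosis minus replication, was -1.23. It was -2.22 with a pseudocount of 0.1 and -2.79 as a log2 ratio of group means without a pseudocount, an alternative added after the data were seen, since the pseudocount of 1 holds back the change of the low mitosis genes. Of the mitosis genes 32 of 35 kept under 10% of the vehicle level, and of the replication genes 2 of 20, Cdc6 and Uhrf1. At the other end, 12 of 20 replication genes and 1 of 35 mitosis genes, Cks2, kept over 25%.

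**Figure D4:**
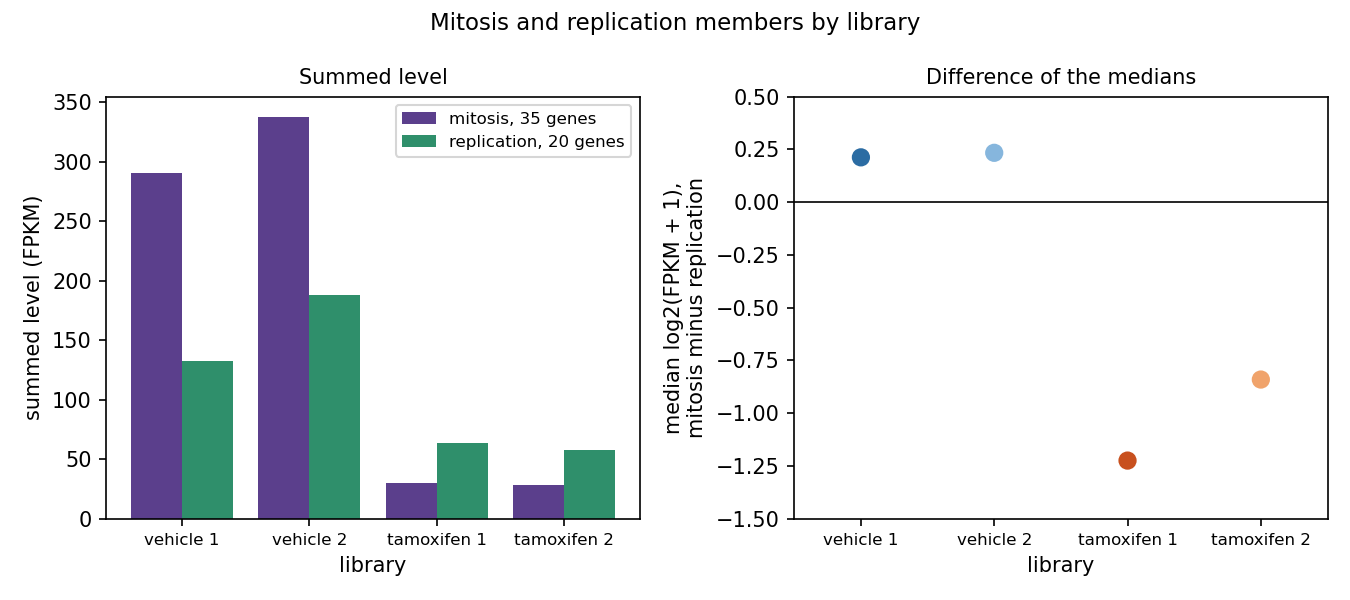
Left, summed FPKM of the 35 mitosis and 20 replication genes in each library. Right, median log2(FPKM + 1) of the mitosis genes minus that of the replication genes. The mitosis sum is the larger in vehicle (290.3 and 338.0 against 132.5 and 187.6 FPKM) and the smaller in tamoxifen (29.7 and 28.4 against 63.8 and 57.5 FPKM).

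Scaling cost more calls among the replication genes than among the mitosis genes, while the medians of both moved by similar amounts and their difference stayed at -1.30 with median ratios and -1.29 with quantile normalization. As deposited, 91.6% of all calls were lower. Rescaling by median ratios moved the median of all genes from -0.60 to 0.064, with 19.4% of genes lower and 16.6% higher, and there 34 of 35 mitosis genes were lower, while 10 of 19 replication genes were lower and 1 was higher. After quantile normalization, with 13.7% of all genes lower and 13.4% higher, 30 mitosis and 6 replication genes were lower and 1 replication gene was higher. The median log2 fold changes were then -1.59 for mitosis and -0.30 for replication, against 0.094 for all genes.

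Genes of the same processes outside the set were examined in 4 further lists. Of 72 other mitosis genes 60 were tested. With limma 53 (88.3%) were lower, beside 46.7% of all genes, and 0 were higher (0 also at an unadjusted p under 0.05). Their median was -1.48. Only 19 and 21 of the 72 reached 1 FPKM in tamoxifen 1 and 2. Many of those tested thus met the filter through vehicle alone and had to be lower, so their count describes the list without supporting the result. With median ratios 43 were lower and 0 higher, and with quantile normalization 27 and 2. Ckap2, a spindle protein, stood at 8.32 and 10.2 FPKM in vehicle and 0.220 and 0.120 FPKM in tamoxifen (log2 fold change -3.13), and its relative Ckap2l changed by -3.11. The most abundant genes of that list did not pass. Hjurp, the chaperone of Cenpa, stood at 37.4 and 30.8 FPKM in vehicle and 28.0 and 19.9 FPKM in tamoxifen (-0.50, adjusted p = 0.108), and Pttg1, the securin that holds sister chromatids, at 19.1 and 28.0 FPKM in vehicle and 18.7 and 14.3 FPKM in tamoxifen (-0.47, adjusted p = 0.153 with limma).

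Of 56 other replication genes 49 were tested, 28 (57.1%) were lower with limma, near the 46.7% of all genes, and 0 were higher (1, Dctpp1, at an unadjusted p under 0.05), with a median of -0.77. Without vehicle 2, tamoxifen 1 and tamoxifen 2 the median of this list was -0.60, -0.84 and -0.71, against -0.52, -0.65 and -0.57 over all genes. With median ratios 10 were lower and 5 higher, and with quantile normalization 2 and 7, so its direction against other genes was mixed. Wdhd1, a polymerase alpha cofactor, had the largest change, with 6.99 and 12.1 FPKM in vehicle and 0.570 and 0.800 FPKM in tamoxifen (-2.61, adjusted p = 0.000931 with limma), followed by the maintenance methyltransferase Dnmt1 (-1.58). Pold4, a small subunit of polymerase delta, was at 16.2 and 24.1 FPKM in vehicle and 18.3 and 15.8 FPKM in tamoxifen, and Dctpp1, which clears unwanted nucleotides, at 12.2 and 10.9 FPKM in vehicle and 15.5 and 18.4 FPKM in tamoxifen (0.52, adjusted p = 0.0719 with limma).

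Upstream of S phase, 16 of 27 tested genes of the G1 cyclins, their kinases and the RB-E2F switch (59.3%) were lower with limma and 0 were higher (0 also at an unadjusted p under 0.05), out of 30 listed, near the 46.7% lower of all genes. With median ratios 4 were lower and 1 was higher, no larger a share than the 19.4% and 16.6% of all genes. The median log2 fold change of the list was -0.58 without vehicle 2, -0.85 without tamoxifen 1 and -0.72 without tamoxifen 2. Over all genes it was then -0.52, -0.65 and -0.57. Ccnd1, the cyclin D1 of growth factor responses, stood at 77.7 and 63.0 FPKM in vehicle and at 25.6 and 6.32 FPKM in tamoxifen (log2 fold change -2.35, SE 0.52, adjusted p = 0.00913 with limma). Ccnd2 changed by -2.12, and Skp1a, a ubiquitin ligase subunit with many duties, was at 89.9 and 89.2 FPKM in vehicle and 77.3 and 56.1 FPKM in tamoxifen without passing.

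Among 20 inhibitors and brakes 18 were tested, 10 (55.6%) were lower with limma and 1 was higher, near the 46.7% and 4.31% of all genes, and with median ratios 3 and 3, near 19.4% and 16.6%. The median log2 fold change was -0.63 without vehicle 2, -0.97 without tamoxifen 1 and -0.77 without tamoxifen 2. Over all genes it was then -0.52, -0.65 and -0.57. The call of a higher gene did not hold in these fits. Cdkn1a, which encodes the kinase inhibitor p21, stood at 32.2 and 41.1 FPKM in vehicle and at 10.9 and 13.8 FPKM in tamoxifen (-1.49, adjusted p = 0.00229 with limma). Pkmyt1, a kinase that inhibits Cdk1, changed by -1.62. Gadd45g, a stress gene, was the 1 called higher, with 74.6 and 51.2 FPKM in vehicle and 114.4 and 119.5 FPKM in tamoxifen (0.91, adjusted p = 0.0168 with limma), and Btg2, an antiproliferative gene, was at 58.6 and 74.3 FPKM in vehicle and 83.4 and 60.8 FPKM in tamoxifen.

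Markers of other liver cells moved with the cell cycle genes, and in bulk samples fewer cells of a type and less RNA per cell cannot be told apart. All 13 Kupffer cell and macrophage markers were lower with limma, and their summed level was 1852, 3747, 159 and 262 FPKM in vehicle 1, vehicle 2, tamoxifen 1 and tamoxifen 2, so 7.52% was left. The 8 stellate cell and fibroblast markers were all lower (361, 621, 30.4 and 47.5 FPKM, 7.93% left), as were the 8 endothelial markers (427, 673, 123 and 149 FPKM, 24.7% left) and the 8 markers of lipid-associated macrophages and monocytes (7.08% left). All 5 erythroid markers tested were lower too (404, 419, 16.3 and 95.4 FPKM). Hepatocyte markers went the other way, with 5 of 12 higher and 0 lower (0 also at an unadjusted p under 0.05, limma), and their sum was 47900, 36567, 71560 and 67309 FPKM. Of the markers tested, 4 of 4 of T and NK cells, 2 of 2 of B cells, 4 of 5 of cholangiocytes and 2 of 3 of neutrophils were lower. Over all genes tested 46.7% were lower and 4.31% higher. In each tamoxifen library 0 T and NK markers and 2 of the 8 stellate markers reached 1 FPKM. Tested markers under that level in both met the filter through vehicle alone and had to be lower. Pancreatic acinar enzymes, not a product of hepatocytes, summed to 1112 FPKM in vehicle 2 and to 8.22, 8.21 and 45.8 FPKM in vehicle 1, tamoxifen 1 and tamoxifen 2. Without vehicle 2 the median log2 fold change of all members was -1.82, against -0.52 over all genes tested. Whether the cell cycle RNA came from hepatocytes or from these other cells was not tested.

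Between replicates of a group some marker lists moved apart from the cell cycle genes. Others lay nearer to them, some in only the vehicle or only the tamoxifen libraries. The macrophage sum in vehicle 2 was 2.02 times that in vehicle 1 and the stellate sum 1.72 times, while the mitosis sum was 1.16 times and the replication sum 1.42 times. In tamoxifen 2 the macrophage sum was 1.65 times that in tamoxifen 1 and the stellate sum 1.56 times, while the mitosis sum was 0.958 times (0.687 times without Cks2) and the replication sum 0.901 times. The endothelial list lay nearer to the members, at 1.58 times between the vehicle libraries and 1.20 times between the tamoxifen libraries. For B cells, T and NK cells and neutrophils the sum was 1.05, 0.862 and 0.639 times between the tamoxifen libraries. Between the vehicle libraries it was 1.89, 4.41 and 2.64 times, farther from the members than the endothelial sum. The T and NK sums in tamoxifen 1 and 2 were only 1.89 and 1.63 FPKM. The erythroid sum was 1.04 times between the vehicle libraries and 5.86 times between the tamoxifen libraries. Vehicle 2 exceeded vehicle 1 for 26 of the 35 mitosis genes, for all 13 macrophage markers and for 8248 of the 11633 genes tested.

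**Figure D5:**
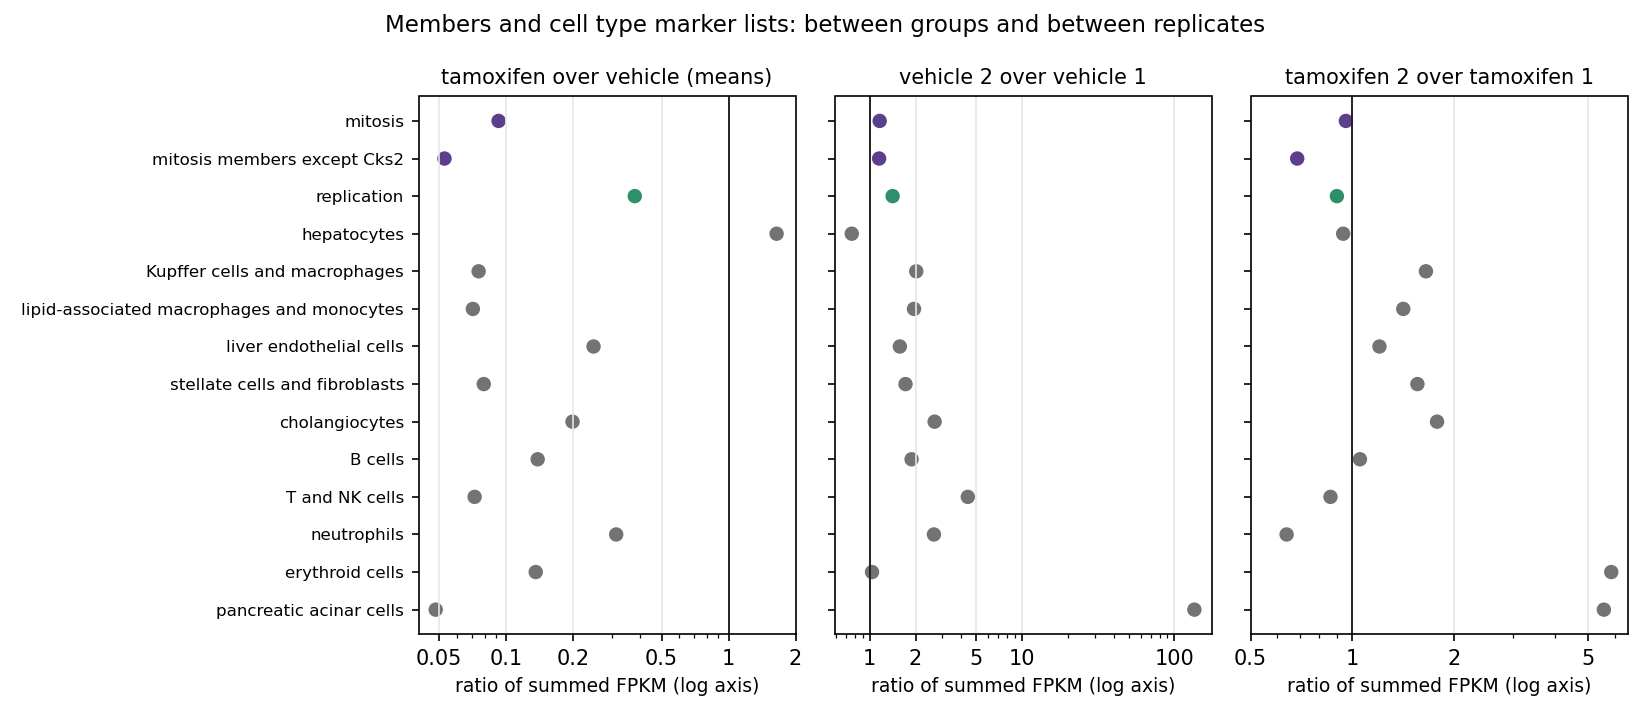
Ratios of summed FPKM (log axes) for the members and for marker lists of 11 cell types, tamoxifen over vehicle on the left, vehicle 2 over vehicle 1 in the middle and tamoxifen 2 over tamoxifen 1 on the right. Mitosis genes share the low left-hand ratio of macrophage and stellate markers (9.24%, 7.52% and 7.93% of vehicle) but differ from these lists between replicates (1.16 against 2.02 and 1.72 in vehicle). Some other lists lie nearer to the members there, those of T and NK cells and neutrophils only between the tamoxifen libraries.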

How the data were processed

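Messenger RNA was enriched with oligo(dT) beads, and libraries were made with the NEBNext Ultra kit. The authors deposited 1 file per library with FPKM values per gene, and no counts. Tools in the submitters' processing notes are StringTie 1.3.1, HISAT2, Bowtie2, RSEM and fastp 0.18.0, with no roles, and the sources used here name no genome build. Coordinates are from GENCODE M21 (GRCm38).

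Genes reaching 1 FPKM in 2 or more of the 4 libraries were tested as log2(FPKM + 1) with limma 3.58.1 (R 4.3.3, lmFit and eBayes with trend), with Benjamini-Hochberg adjustment over 11633 genes. The code was checked on simulated data. Python 3.11.15 with matplotlib 3.10.9 drew the figures. Fragments per gene were approximated from FPKM, the estimated depth and the longest coding transcript. The estimate took low values as whole fragments, and 61.3% to 76.9% of these came within 0.1 of a whole number.

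The members and lists were chosen with earlier results of these data known. Values are given per library for the most abundant member of each role, the 4 largest and 3 smallest changes in mitosis and in replication, each member not called, and in each pathway list the 2 largest changes, the 2 highest levels and genes called higher; other members are named in passing. Alternatives were median ratios, quantile normalization, a filter on a mean of 5 FPKM or none, each library left out, a pseudocount of 0.1 and the replicate number as a block.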

Additional observations from a re-analysis of the deposited data

How the results depend on the processing

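The direction of the mitosis genes other than Cks2 held under all alternatives run, with 30 to 34 of 35 called lower where all were tested. For the 31 that met the filter through vehicle alone, it could not turn with another pseudocount or a left-out library. With a mean of at least 5 FPKM fewer genes were tested. There 11 of 12 mitosis, 6 of 9 replication and 17 of 21 members in all were lower, beside 3182 of 7536 genes. Replication calls fell to 6 after quantile normalization and ranged from 9 to 14 over the left-out libraries, and calls over all members from 43 to 48. The count of members higher was 1 after median ratios and 1 after quantile normalization (Tk1, adjusted p = 0.0210 and 0.0243 with limma) and 0 in the others. The median difference of mitosis minus replication was -1.98 with a mean of at least 5 FPKM, -2.22 with a pseudocount of 0.1 and -2.79 as a log2 ratio of means, against -1.23, and ran from -1.38 to -1.21 over the left-out libraries. An alternative added after the data were seen left out Foxm1, Melk, Hmmr, Stmn1 and Cks2, the last 5 genes of the given list. The difference was then -1.28. This drops Cks2, the 1 mitosis gene not called, so the count of 30 of 30 lower was fixed beforehand.

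Genes near no change turned direction with the scaling. After median ratios and quantile normalization, in that order, the log2 fold change was 0.26 and 0.10 for Cks2, 0.48 and 0.86 for Ccne1, 0.42 and 0.52 for Gmnn, 0.041 and 0.19 for Tyms and 0.35 and 0.67 for E2f8. Over the left-out libraries Ccne1 ran from -0.24 to 0.15, Tk1 from -0.095 to 0.30 and E2f8 from -1.17 to 0.76, with the sign turned without vehicle 1 for Ccne1 and Tk1 and without tamoxifen 2 for E2f8. E2f8 was called lower without tamoxifen 1 (adjusted p = 0.0489 with limma). The causes were not tested.

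Replicate numbers are shared by the groups, but the labels do not say that they pair the libraries (correlation of deviations 0.28 over 2 pairs). With the replicate number as a block 49 members were lower, beside 5863 of all 11633 genes tested. Of the 49, 34 were in mitosis and 15 in replication, the added one being Tyms (adjusted p = 0.0407 with limma). Without the filter 49 of 55 were lower, beside 4647 of 16967 genes. With 2 libraries per group, and few fragments behind most tamoxifen values of mitosis genes (a median of 13.9 and 8.4), the size of their fall is less certain than its direction.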
